A study of Mus musculus with 16 samples.

Results

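The 10 genes described here encode effector cytokines and chemokines of T cells: Ifng, Il2, Tnf, Lta, Csf2, Il3, Ccl3, Ccl4, Ccl5 and Xcl1. They were chosen by symbol among the 22328 genes with a probe on the array, with earlier results of these data known. Where a gene had several probes the brightest was to stand for it. All 10 were found, each with 1 probe.

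The study profiled polysomes of mouse OT-1 T cells labelled as with or without the tyrosine kinase Lck, which acts first when the T cell receptor binds its ligand. OT-1 cells all bear 1 transgenic receptor, specific for SIINFEKL, a peptide of ovalbumin. Both groups were lymph node T lymphocytes labelled OT-1het and Rag-/-, a background that cannot rearrange its own receptor genes. One group was labelled WT and the other Lck-/-, a knockout of Lck. The series title adds the tag OFF to Lck-/-, which the sources used here do not explain, and ages and a sort of the cells were not given. In both groups the cells received 100 nM SIINFEKL for 24 h and 100 µg/ml cycloheximide, which holds ribosomes on mRNA, for the last 10 min. Post-nuclear lysates ran on sucrose gradients of 10% to 50%, with fractions 1 to 5 combined into the sub-polysomal and 6 to 10 into the polysomal pool, and 1.5 µl of either pool was labelled. There were 4 extracts per genotype, described as biological replicates, each on 2 two-colour arrays with the dyes swapped, 16 arrays in all.

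Activated CD8 T cells act at a distance through secreted proteins. Antigen binding switches on transcription factors of the NFAT, AP-1 and NF-kappaB families, which start transcription of cytokine genes within hours, while T-bet and Eomes set how strongly Ifng and related genes respond. The mRNAs of many cytokines carry AU-rich elements in their 3′ untranslated regions, through which RNA-binding proteins control their decay and translation.

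Each gene was read by a single 60-base probe of the array, printed here as a stretch of 30 bases for the 7 genes with a level or ratio called different between genotypes, so that the target of each value can be seen. Capitals mark ATTTA, the core of the AU-rich element, searched on the probe strand only. The probes of 2 of the 10 genes, Ifng and Ccl4, held it, against 7.71% of the 55681 probes on the array. Positions are those of the whole probe on mm9, as the array annotation gives them.
Ifng, chr10:117882841-117882900, plus strand: acccgaatgacaaataactcgctcATTTAt
Csf2, chr11:54060772-54060799, minus strand: tctgaaaacgctgactcagcttggacagcg
Lta, chr17:35340275-35340334, minus strand: aggggaaaaatagaaagccgtcagatgaca
Il3, chr11:54078587-54078646, minus strand: attccaaggaagactggggccatgttcatt
Ccl4, chr11:83478052-83478111, plus strand: tattATTTAtgttttagttataggacgcgt
Ccl5, chr11:83339296-83339355, minus strand: tctcagctgctccgaggctctgcacagcaa
Xcl1, chr1:166862020-166862079, minus strand: tcaccaaacgaggactaaaaatttgtgctg

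The annotated interval of the Csf2 probe covers 28 of its 60 bases. The Il2 probe lies at chr3:37020012-37020071, that of Tnf at chr17:35336795-35336854 and that of Ccl3 at chr11:83461358-83461417, all on the minus strand. None of the 10 probes shared a stretch of 16 bases, on either strand, with the probe of another gene.

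All 10 mRNAs were measured in both pools of both genotypes. Each was well above background on all 8 arrays of a genotype in both channels, except Csf2 in WT (6 arrays in the polysomal channel and 7 in the sub-polysomal channel) and Xcl1 in the sub-polysomal channel of Lck-/- (7 arrays). Over the arrays, between 14619 and 50776 probes were well above background in the polysomal channel and between 12531 and 30976 in the sub-polysomal channel. Markers of T cells were present throughout: 10 of 10 on the list, among them Cd3e, Cd8a and Cd8b1, were detected in both genotypes, with a summed log2 level of 16.70 to 17.02 in WT and 17.05 to 17.16 in Lck-/-. In mean log2 level 2 of the 10 were called higher in Lck-/-, against 8.91% of all genes tested. These were Lat (0.58, limma adjusted p = 0.0102) and Thy1 (0.44, adjusted p = 0.0373). Without WT replicates 1 and 2 both calls ended (adjusted p = 0.0589 and 0.111). Lck itself had a mean log2 level of 14.72 to 15.17 in the WT extracts and 14.03 to 14.36 in the Lck-/- extracts (-0.85, SE 0.14, limma adjusted p = 0.00302), so its probe still gave a bright signal in the extracts labelled Lck-/-. Whether that probe lies in the altered part of the gene is not given in the sources used here.

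The arrays labelled as WT replicates 1 and 2 went against their labels. An array of WT replicate 1 and its dye swap correlated at -0.83 over genes, in deviations from the mean of their genotype and dye orientation, and those of WT replicate 2 at -0.80, whereas the other 6 extracts gave 0.45 to 0.84. With the dye swaps exchanged between these extracts, the correlations were 0.86 and 0.93. The cytokine probes showed this directly. The ratio of Ifng was -1.97 on the first array of WT replicate 1 and 0.81 on its dye swap, but 0.75 on the first array of WT replicate 2 and -1.97 on its dye swap. Over the 10 genes, the median gap between the arrays of an extract was 2.12 for WT replicate 1 and 2.35 for WT replicate 2, against 0.11 to 0.24 for the other extracts. Exchanging the dye swaps reduced these gaps to 0.22 and 0.18. The low-ratio arrays of both extracts were on slide 1 and the high-ratio arrays on slide 2, so an exchange of arrays and an effect of the slide on these extracts cannot be told apart. Values below follow the labels, and where a call ends with crossed dye swaps (the exchange) or without both extracts, that is given beside it.

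**Figure D1:**
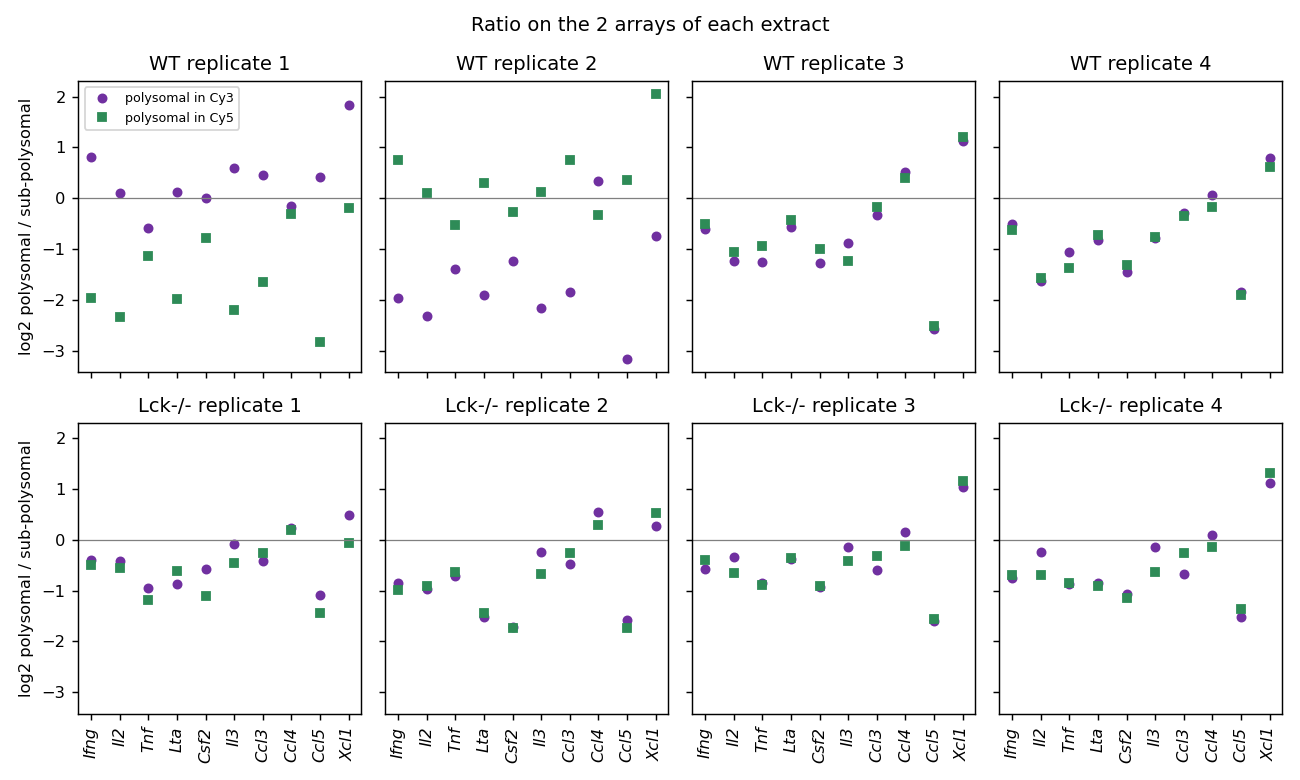
Log2 ratio of polysomal to sub-polysomal signal of the 10 genes on both arrays of each extract, with circles for arrays that had the polysomal RNA in Cy3 and squares for those that had it in Cy5. The paired symbols lie close together in 6 extracts, with median gaps of 0.11 to 0.24, and far apart in WT replicates 1 and 2, with median gaps of 2.12 and 2.35.

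The amount of each mRNA was taken as the mean of its log2 polysomal and sub-polysomal levels, which does not move with the scaling of the ratio but, as a mean of logs, can move when an mRNA is split differently between the pools. Ifng, Csf2, Ccl4 and Lta were higher and Xcl1 was lower in the extracts labelled Lck-/-, while Il2, Tnf, Il3, Ccl3 and Ccl5 did not pass the test. The higher genes gained between 0.76 and 1.04 on the log2 scale, which is 1.69-fold to 2.06-fold, and Xcl1 lost 2.13-fold. Thus 5 of the 10 genes were called at an adjusted p under 0.05, against 20.0% of the 9393 genes tested, with 4 higher against a background of 8.91% and 1 lower against 11.1%. The same number, 5 of 10, was called with crossed dye swaps, against 17.6%, and 2 of 10, Ifng and Csf2, without WT replicates 1 and 2, against 8.63%. The median difference was 0.12 over the 10 genes and 0.03 over all genes tested. In bulk RNA, fewer cells that express a gene and less RNA per cell cannot be told apart.

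Ifng, the macrophage-activating interferon of cytotoxic cells, had log2 mean levels of 12.22, 12.16, 12.41 and 11.79 in WT replicates 1 to 4. In Lck-/- replicates 1 to 4 they were 13.11, 13.54, 13.26 and 12.69. Every Lck-/- extract lay above every WT extract. The difference was 1.00 (SE 0.19, 95% interval 0.59 to 1.42, limma adjusted p = 0.00602, n = 4 per genotype). It was called under all 24 alternative settings, where it ranged from 0.87 to 1.16. It measured 1.04 on slide 1 and 0.97 on slide 2.

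Csf2 encodes GM-CSF, a growth and activating factor for myeloid cells. It was well above background on 6 or 7 of the 8 WT arrays, by channel. Its levels were 7.45, 7.65, 8.31 and 7.91 in WT and 8.90, 9.0, 8.57 and 9.04 in Lck-/-. The groups did not overlap, as for 25.4% of all genes tested. The difference was 1.04 (SE 0.19, 95% interval 0.63 to 1.46, limma adjusted p = 0.00495), and it was called under all 23 alternatives that tested it, between 0.76 and 1.62. It was 1.09 on slide 1 and 1.00 on slide 2.

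Ccl4 (MIP-1beta), a chemokine that attracts T cells and macrophages, rose from 13.61, 14.35, 14.07 and 14.31 in WT to 15.50, 15.24, 14.83 and 14.40 in Lck-/-. The groups did not overlap, although the highest WT extract and the lowest Lck-/- extract almost met. The difference was 0.91 (SE 0.24, 95% interval 0.39 to 1.43, limma adjusted p = 0.0236). It kept its sign in 24 of 24 alternatives and its call in 15, and was lost without WT replicates 1 and 2 (0.80, adjusted p = 0.0959). Leaving out WT replicate 3 or Lck-/- replicate 2 alone also ended it, with an adjusted p of at most 0.0585.

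Lta encodes lymphotoxin alpha, a TNF relative that builds and maintains lymphoid tissue. Its levels were 11.01, 10.93, 11.78 and 11.70 in WT and 12.06, 11.67, 12.50 and 12.23 in Lck-/-. Lck-/- replicate 2 fell within the WT range. The difference of 0.76 (SE 0.23, 95% interval 0.25 to 1.27, limma adjusted p = 0.0401) was called in 11 of 24 alternatives. Without WT replicates 1 and 2 it was 0.37 (adjusted p = 0.314), and leaving out any of 5 single extracts (WT 1 or 2, Lck-/- 1, 3 or 4) ended the call, with an adjusted p of at most 0.110.

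Xcl1 (lymphotactin), which CD8 T cells and NK cells secrete to attract cross-presenting dendritic cells, was the gene that fell. Its levels were 9.87, 9.88, 10.52 and 9.17 in WT and 9.04, 8.90, 9.10 and 8.03 in Lck-/-. The groups did not overlap, by a narrow margin between WT replicate 4 and Lck-/- replicate 3. The difference was -1.09 (SE 0.29, 95% interval -1.73 to -0.46, limma adjusted p = 0.0246). It was called in 14 of 23 alternatives, was negative in all 23, and missed the threshold without WT replicates 1 and 2 (-1.08, adjusted p = 0.102). Without WT replicate 2, WT replicate 3 or Lck-/- replicate 4 it also missed, with an adjusted p of at most 0.0679.

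**Figure D2:**
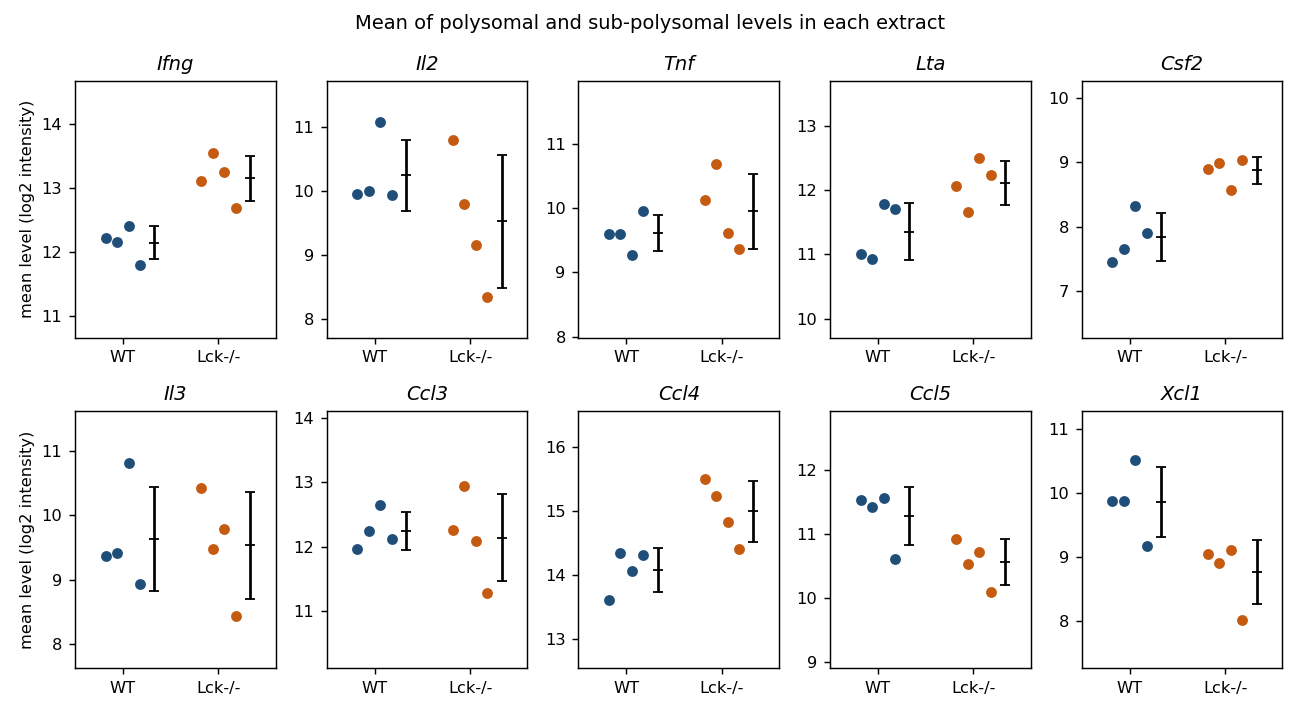
Mean of the log2 polysomal and sub-polysomal levels of each gene in the 4 WT and 4 Lck-/- extracts (points, in the order of their replicate numbers), with the mean and SD of each genotype beside them. Every panel spans 4 log2 units. Ifng, Csf2 and Ccl4 lie higher and Xcl1 lower in all Lck-/- extracts, whereas Il2, Il3 and Tnf overlap widely.

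Ccl5 (RANTES), a chemokine of memory and effector CD8 cells, came close to the threshold. Its levels were 11.54, 11.43, 11.56 and 10.61 in WT and 10.93, 10.54, 10.72 and 10.09 in Lck-/-. WT replicate 4 lay among the Lck-/- extracts. The difference was -0.71 (SE 0.23, 95% interval -1.23 to -0.20, limma adjusted p = 0.0519). Over the 8 extracts, Ccl5 and Xcl1 varied together with a Pearson r of 0.95, a description of extracts that share arrays, scaling and a genotype difference.

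Il2, the T cell growth factor, and Il3, a growth factor for mast cells and other myeloid cells, varied most within a genotype. Il2 measured 9.96, 10.01, 11.08 and 9.94 in WT and 10.80, 9.81, 9.16 and 8.35 in Lck-/-. The groups overlapped widely, and the difference was -0.72 (SE 0.44, 95% interval -1.68 to 0.25, limma adjusted p = 0.265). Il3 measured 9.36, 9.42, 10.81 and 8.94 in WT and 10.43, 9.48, 9.78 and 8.44 in Lck-/-, which gave -0.10 (SE 0.44, 95% interval -1.05 to 0.86, adjusted p = 0.895). Both intervals are wide, so a sizeable change of either mRNA could have been missed. The SD of Il2 was 0.56 in WT and 1.03 in Lck-/-, against a median SD over all genes tested of 0.18 and 0.23.

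Tnf, the inflammatory cytokine tumour necrosis factor, differed by 0.34 (SE 0.26, 95% interval -0.23 to 0.91, limma adjusted p = 0.367), with levels of 9.27 to 9.95 in WT and 9.37 to 10.69 in Lck-/-. Ccl3 (MIP-1alpha), a chemokine of inflammation, differed by -0.10 (SE 0.29, 95% interval -0.74 to 0.54, adjusted p = 0.837), with 11.96 to 12.66 in WT and 11.28 to 12.94 in Lck-/-. In both genes the groups overlapped.

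The 10 genes hold 3 pairs of neighbours on a chromosome, and in each pair 1 gene passed the test while the other did not. The probes of Ccl3 and Ccl4 lie 16694 bases apart, those of Lta and Tnf 3480 and those of Csf2 and Il3 17815. The difference within each pair was compared between genotypes with an exact permutation test, two-sided, over 70 arrangements of the 8 extracts, for which 0.0286 is the smallest p possible. Ccl4 minus Ccl3 was 1.41 to 2.19 in WT and 2.29 to 3.24 in Lck-/-, a change of 1.01 with no overlap (exact permutation p = 0.0286, 0.0857 adjusted over the 3 pairs). The change was the same after the exchange, with an exact permutation p of 0.0571. Csf2 minus Il3 changed by 1.14 (exact permutation p = 0.0857) and Lta minus Tnf by 0.42 (exact permutation p = 0.429). With 3 pairs, a single pair cannot reach an adjusted p below 0.0857 in this design, so the adjusted test could not have called Ccl4 against Ccl3 alone.

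The levels of each pool were compared next, to see whether the changes sat in the polysomal RNA, the sub-polysomal RNA or both. Both levels were taken after loess normalization, which sets the typical ratio of polysomal to sub-polysomal signal near 0 on every array. The median ratio before it was 1.32 in WT and 0.51 in Lck-/-, and the pool levels do not hold this shift. How the pools compare is thus relative to other mRNAs. In the polysomal pool, 4 of the 10 genes were called against 15.0% of the 10292 genes tested, 3 of them higher against 5.60% and 1 lower against 9.37%. Ifng rose by 0.97 (SE 0.20, limma adjusted p = 0.0106), Csf2 by 0.93 (SE 0.17, adjusted p = 0.00674) and Ccl4 by 0.97 (SE 0.28, adjusted p = 0.0393), and Xcl1 fell by 1.14 (SE 0.30, adjusted p = 0.0290). With the exchange no difference moved, but 1 of the 4 calls remained, Csf2 at an adjusted p of 0.0195, against 6.77% of all genes. Ifng then had an adjusted p of 0.0616, Ccl4 of 0.0600 and Xcl1 of 0.111. Without WT replicates 1 and 2 limma called 0 of the 10 in this pool, with 4 at an unadjusted p under 0.05, and the adjusted p of Ifng, Csf2, Ccl4 and Xcl1 lay between 0.0811 and 0.198. Over the alternative settings Ifng was called in 17 of 24, Csf2 in 20 of 23, Ccl4 in 5 of 24 and Xcl1 in 11 of 23. The lowest rise of Ccl4 was 0.25. Of 8 fits without 1 extract, the call of Ccl4 remained in 1 and that of Xcl1 in 3.

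Ifng in the polysomal pool measured 11.93, 11.85, 12.13 and 11.51 in WT and 12.89, 13.08, 13.01 and 12.33 in Lck-/-, without overlap, as for 22.6% of all genes in this pool. With crossed dye swaps WT replicates 1 and 2 became 11.22 and 12.56, and the latter lay above Lck-/- replicate 4. The difference in this pool was 1.38 on slide 1 and 0.57 on slide 2.

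In the sub-polysomal pool, 6 of the 10 genes were called against 19.3% of the 9703 genes tested, 4 of them higher against 8.54% and 2 lower against 10.8%. Ifng rose by 1.04 (SE 0.21, limma adjusted p = 0.00709), Csf2 by 1.16 (SE 0.27, adjusted p = 0.0135), Ccl4 by 0.85 (SE 0.22, adjusted p = 0.0221) and Lta by 0.82 (SE 0.19, adjusted p = 0.0132). Ccl5 fell by 0.85 (SE 0.25, adjusted p = 0.0387) and Xcl1 by 1.04 (SE 0.32, adjusted p = 0.0417). The 4 rises were also called with crossed dye swaps, with adjusted p from 0.0246 to 0.0476, but the falls of Ccl5 (adjusted p = 0.178) and Xcl1 (adjusted p = 0.0643) were not. Without WT replicates 1 and 2 the call that remained was that of Ifng (1.09, adjusted p = 0.0380). Csf2 then differed by 0.71 (adjusted p = 0.0843) and Lta by 0.49 (adjusted p = 0.0923), both over 1.5 times less than before. Ccl4 differed by 0.83 (adjusted p = 0.0759), Ccl5 by -0.88 (adjusted p = 0.116) and Xcl1 by -0.98 (adjusted p = 0.149). Over the alternative settings Ifng was called in 21 of 24, Csf2 in 20 of 23, Lta in 20 of 24 and Ccl4 in 16 of 24. Ccl5 was called in 8 of 24 and Xcl1 in 8 of 23. Of 8 fits without 1 extract, the call of Ccl5 remained in 2 and that of Xcl1 in 3.

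Lta in the sub-polysomal pool measured 11.48, 11.33, 12.03 and 12.09 in WT and 12.43, 12.41, 12.68 and 12.67 in Lck-/-. All Lck-/- extracts lay above all WT extracts there, and 25.9% of all genes tested in this pool had no overlap either. In the polysomal pool its values were 10.55, 10.53, 11.53 and 11.32 against 11.69, 10.93, 12.32 and 11.79, which overlapped, and the difference of 0.70 (SE 0.30, limma adjusted p = 0.138) did not pass. That the pools differ for Lta was not shown, since its ratio did not pass the test either.

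**Figure D3:**
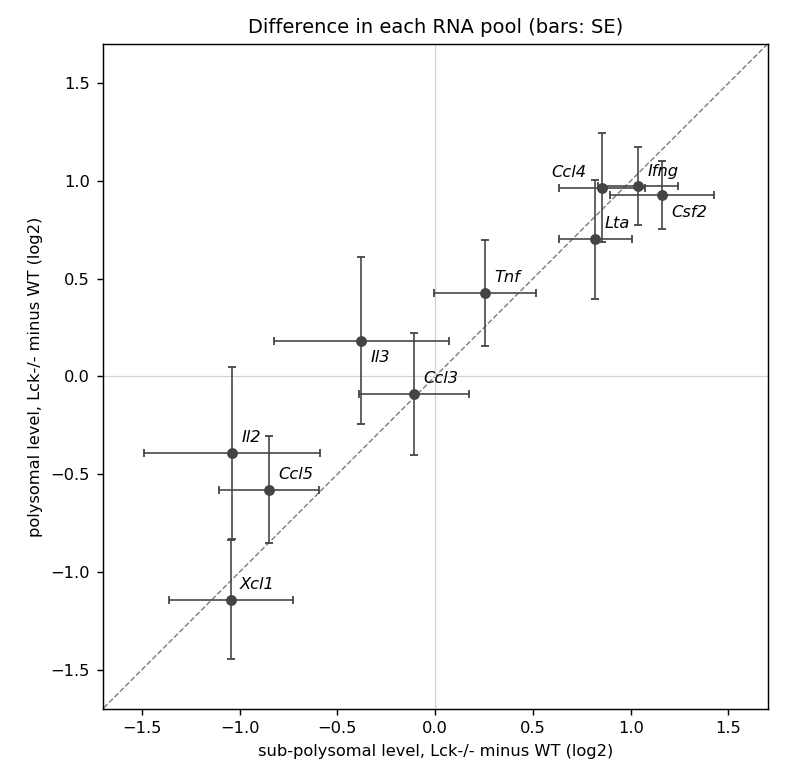
Difference of each gene between genotypes, Lck-/- minus WT, in the sub-polysomal pool (x axis) and the polysomal pool (y axis), both in log2 with SE bars. The dashed line marks equal differences. Ifng, Csf2, Ccl4 and Lta lie together at 0.70 to 1.16 on both axes and Xcl1 at about -1.1, while Il2 and Il3 lie above the line by 0.65 and 0.56. Levels are those after loess normalization. With no normalization the ratio differences of Il2 and Il3 were -0.21 and -0.17, which is below the line.

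The ratio of polysomal to sub-polysomal signal gives the share of an mRNA in the polysomal pool relative to other mRNAs. After loess normalization a typical mRNA has a ratio near 0 on every array, so the position of a gene was also read as the percentage of tested genes with a lower ratio. In both genotypes 8 of the 10 mRNAs lay below the median of the 8482 genes tested, and the middle of the 10 lay at 10.3% in WT and also at 10.3% in Lck-/-. Xcl1 stood on the other side at 93.8% and 92.8%, and Ccl4 near the middle at 50.6% and 65.8%. The count below the median and the place of Xcl1 depended little on the scaling: under median centring, without normalization, with the scanner's processed signals and in the authors' deposited table, 8 of 10 lay below the median in WT and 8 or 9 of 10 in Lck-/-, and Xcl1 stayed between 92.1% and 96.9%. The places of other genes did move. Ccl4 in Lck-/- lay between 39.8% and 73.5% over these settings, on either side of the median, Ccl3 in WT between 20.7% and 35.2%, and Csf2 in WT, at 8.94% after loess, between 3.06% and 3.49%.

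Against 0, the loess ratios of 9 of 10 genes differed in each genotype, against 61.6% of all genes in WT and 55.2% in Lck-/- (limma, adjusted p under 0.05). Of these, 8 lay below 0, against 28.9% of all genes in WT and 29.0% in Lck-/-, and 1, Xcl1, above, against 32.7% and 26.2%. The sign against 0 follows the normalization. Before it, the median ratio of all tested genes was 1.32 ± 0.30 (SD, n = 4) in WT and 0.51 ± 0.26 in Lck-/-, and without it Ifng, for example, stood at 0.89 in WT. With crossed dye swaps 5 genes differed from 0 in WT, against 45.6% of all genes, and 4 in Lck-/-, against 35.1%. Counted in either direction, both were near the background. All of these calls lay below 0, however, as did those of 21.5% of all genes in WT and 17.9% in Lck-/-. Without WT replicates 1 and 2 the counts in either direction were 7 against 43.3% in WT and 9 against 49.0% in Lck-/-.

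Ccl5 had the lowest ratio of the 10 in both genotypes. It was -1.21, -1.41, -2.54 and -1.88 in WT and -1.27, -1.66, -1.58 and -1.45 in Lck-/-. At these means, -1.76 and -1.49, 2.25% of the tested genes lay lower in WT and 0.990% in Lck-/-. WT replicates 3 and 4, whose dye swaps matched, were lower than all Lck-/- extracts, but crossing put WT replicates 1 and 2 at -3.00 and 0.38. The difference between genotypes was 0.27 (SE 0.25, 95% interval -0.28 to 0.83, limma adjusted p = 0.584).

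Xcl1 had a ratio of 0.82, 0.65, 1.16 and 0.70 in WT and 0.21, 0.40, 1.11 and 1.22 in Lck-/-. As labelled, all 8 values lay above 0, and the Lck-/- values spread around the WT values. Crossing put WT replicates 1 and 2 at -0.47 and 1.94. The ratio was then not called against 0 in WT (limma adjusted p = 0.0555) or in Lck-/- (adjusted p = 0.0974). Its difference between genotypes was -0.10 (SE 0.23, 95% interval -0.61 to 0.41, limma adjusted p = 0.855). With crossed dye swaps the interval ran from -1.10 to 0.91.

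Ifng had the most even ratios among WT extracts as labelled, -0.58, -0.61, -0.56 and -0.56, against -0.45, -0.92, -0.49 and -0.72 in Lck-/-. The evenness of WT replicates 1 and 2 is that of averages over unlike arrays, since crossing gave -1.97 and 0.78. The difference of -0.07 (SE 0.13, 95% interval -0.36 to 0.22, limma adjusted p = 0.824) did not pass the test. That interval holds only as labelled: with crossed dye swaps it ran from -1.09 to 0.95 (adjusted p = 0.984), and without both extracts from -0.51 to 0.34. It measured 0.67 over slide 1 and -0.80 over slide 2, and in the authors' deposited table with centred columns -0.31.

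**Figure D4:**
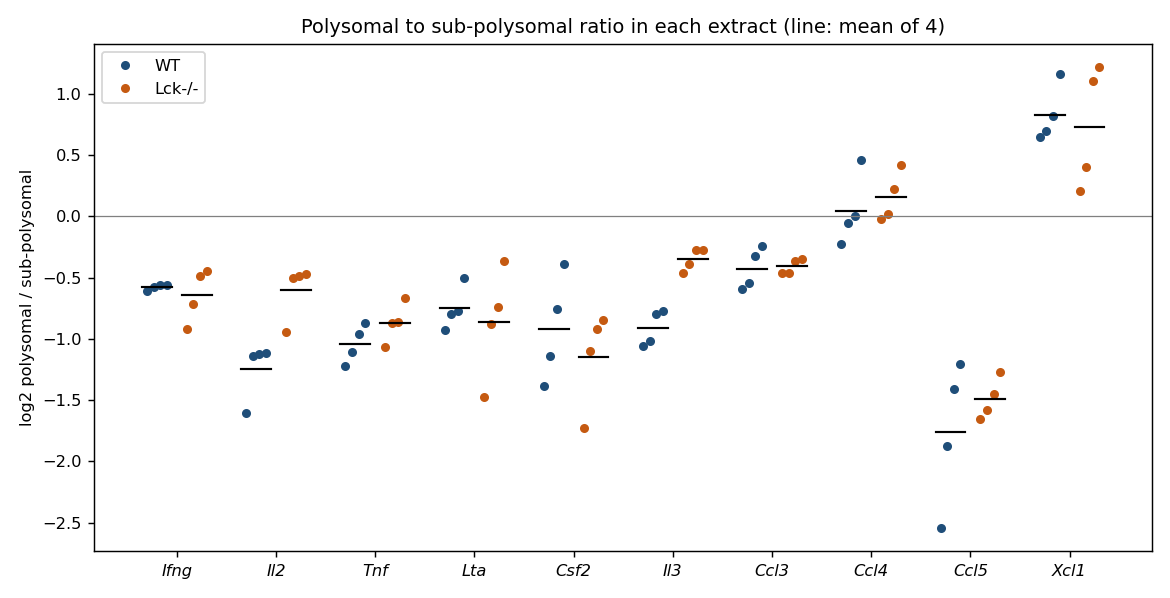
Log2 ratio of polysomal to sub-polysomal signal of each gene in the 4 WT and 4 Lck-/- extracts as labelled, after loess normalization, with a line at each mean. Ratios of 8 genes lie below 0 in both genotypes, Ccl4 lies around 0 and Xcl1 above it, and the genotypes separate for Il2 and Il3.

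Between genotypes the ratio of 1 gene of the 10 was called, against 3.65% of the 8482 genes tested, and it was higher, against 2.69%. Of the 310 genes called, 228 were higher in Lck-/-, but 32 of 4734 with median centring and 25 of 7559 in the authors' deposited table as it stands, where the ratio scale as a whole lay lower in Lck-/-. Il3 had ratios of -0.80, -1.02, -1.06 and -0.77 in WT and -0.27, -0.46, -0.27 and -0.39 in Lck-/-. The groups did not overlap, as for 14.3% of all genes tested. The difference was 0.56 (SE 0.12, 95% interval 0.30 to 0.83, limma adjusted p = 0.0291). With crossed dye swaps WT replicates 1 and 2 became -2.18 and 0.36, the SE 0.42 and the adjusted p 0.752, and without both extracts the adjusted p was 0.185. Leaving out WT replicate 1, 2 or 3 or Lck-/- replicate 3 or 4 also ended the call, with an adjusted p of at most 0.101. The difference was 1.19 on slide 1 and -0.07 on slide 2.

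Il2 differed by 0.65 (SE 0.16, 95% interval 0.29 to 1.00) and missed the threshold at a limma adjusted p of 0.0523. Its ratios were -1.13, -1.11, -1.14 and -1.60 in WT and -0.49, -0.94, -0.50 and -0.47 in Lck-/-, again without overlap. The limma adjusted p was 0.709 with crossed dye swaps and 0.157 without WT replicates 1 and 2. In the authors' deposited table with each column centred, limma called both genes higher in Lck-/-, Il2 by 0.63 (adjusted p = 0.0390) and Il3 by 0.58 (adjusted p = 0.0286). Each column of that table already combines an array with its dye swap, so the dye swaps could not be crossed there.

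The other 8 ratios differed by -0.23 to 0.27, with limma adjusted p from 0.498 to 0.952. The median difference was 0.07 over the 10 genes and -0.04 over all genes. Without loess the scale of these differences moved as a whole: the median of all genes was -0.77 under median centring, and 5 of the 10 genes were then called lower in Lck-/-, against 55.4% of all genes, with a median of -0.74 that lay 0.03 above that of all genes.

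Genes around the cytokines were then read from 4 lists, each chosen with earlier results of these data known. Of the receptors for the products of these genes, 11 were tested for their mean level. Of these, 3 rose, against 8.91% of all genes tested, and 2 fell, against 11.1%. Csf2ra, the alpha chain of the GM-CSF receptor, fell from 8.60, 8.72, 9.35 and 8.50 in WT to 7.53, 7.37, 7.74 and 7.43 in Lck-/-, by -1.27 in log2 (SE 0.18, limma adjusted p = 0.00173). Il2rg, the common gamma chain of the receptors for IL-2 and related cytokines, fell by 1.10 (SE 0.24, adjusted p = 0.0107). Tnfrsf1b, a TNF receptor, rose by 0.70 (adjusted p = 0.00726), Il2rb, the beta chain of the IL-2 receptor, by 0.65 (adjusted p = 0.0246). Ifngr1, the ligand-binding chain of the interferon gamma receptor, named after its value was seen, rose by 0.76 (adjusted p = 0.0310). The median over the 11 was 0.12. Of 7 receptor ratios limma called 0, against 3.65% of all genes tested, with 3 at an unadjusted p under 0.05. Without WT replicates 1 and 2 the mean-level calls of Csf2ra and Il2rg remained, and those of Tnfrsf1b, Il2rb and Ifngr1 ended (adjusted p from 0.0605 to 0.0809).

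Of the inducers of cytokine transcription, 25 were tested for their mean level, with a median of 0.23. Of these, 6 rose, against 8.91% of all genes tested, and 2 fell, against 11.1%. Eomes, a T-box factor of effector and memory CD8 cells, was 9.63, 9.35, 9.24 and 10.02 in WT and 10.49, 12.01, 11.74 and 12.26 in Lck-/-. Its difference of 2.06 (SE 0.33, limma adjusted p = 0.00280) was the largest on the list, and the groups did not overlap. Tbx21, which encodes T-bet, rose from 12.32 to 12.89 in WT to 13.51 to 13.89 in Lck-/-, by 0.97 (SE 0.15, adjusted p = 0.00280). Irf8 rose by 0.64 (adjusted p = 0.0194), and Batf3, an AP-1 family member, fell by 1.02 (SE 0.22, adjusted p = 0.00953). Named after their values were seen, the NF-kappaB genes Nfkb1 and Rela rose by 0.93 and 0.46, the NFAT gene Nfatc1 rose by 0.60, and Stat4, which relays IL-12 signals, fell by 0.55 (adjusted p from 0.0198 to 0.0430). Of 24 ratios on this list limma called 0, against 3.65% of all genes tested, with 2 at an unadjusted p under 0.05. Eomes, Tbx21, Batf3 and Nfkb1 were also called without WT replicates 1 and 2, whereas Irf8, Rela, Nfatc1 and Stat4 were not (adjusted p from 0.0714 to 0.210).

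Of the other cytokines and chemokines of lymphocytes, 17 were tested for their mean level, with a median of 0.25. Of these, 4 rose, against 8.91% of all genes tested, and 2 fell, against 11.1%. Ltb, the membrane partner of lymphotoxin alpha, was 12.84 to 13.08 in WT and 13.44 to 14.09 in Lck-/-, a rise of 0.82 (SE 0.15, limma adjusted p = 0.00574). Il22 rose by 1.15 (SE 0.29, adjusted p = 0.0194) from low intensities of 7.19 to 8.24. Tnfsf8, the CD30 ligand, rose by 0.80 (adjusted p = 0.0136), and Tnfsf9, the 4-1BB ligand, fell by 0.69 (adjusted p = 0.0181). Named after their values were seen, Tnfsf14 (LIGHT) rose by 0.73 (adjusted p = 0.0294) and Il16 fell by 0.40 (adjusted p = 0.0345). In this list 1 ratio of 15 was called, against 3.65% of all genes tested. Cxcl11 was called at 1.28 (limma adjusted p = 0.0295, 0.409 with crossed dye swaps and 0.183 without both extracts). Its 2 probes shared a stretch of 16 bases with probes of 2 and of 19 other genes. Without WT replicates 1 and 2 the mean-level calls of Ltb and Tnfsf8 remained. Those of Il22 (0.72, adjusted p = 0.151), Tnfsf9, Tnfsf14 and Il16 ended (adjusted p from 0.135 to 0.151).

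Of the regulators of cytokine mRNA decay and translation, 15 were tested for their mean level, with a median of 0.19. Of these, 2 rose, against 8.91% of all genes tested, and 1 fell, against 11.1%. Zc3h12d, a relative of the RNase Regnase-1, fell by 0.65 (SE 0.15, limma adjusted p = 0.0124). Rc3h1, which encodes the RNA-binding protein Roquin-1, rose by 0.45 (adjusted p = 0.0346) and Ilf2, named as an interleukin enhancer binding factor, by 0.48 (adjusted p = 0.0351). Ybx1 binds mRNA as YB-1. Its ratio was called at 0.97 (limma adjusted p = 0.0415, 0.197 with crossed dye swaps and 0.160 without both extracts). This was 1 of 13 ratios on this list, against 3.65% of all genes tested. After the exchange each call of mean level named for these 4 lists remained, except that of Stat4 (adjusted p = 0.0515). Without both extracts the calls of Zc3h12d, Rc3h1 and Ilf2 ended (adjusted p from 0.0683 to 0.156).

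Most markers of cells other than CD8 T cells were not detected. Of 8 NK cell markers 1 was detected in WT and 3 in Lck-/- (Klra8, Klra4 and Tyrobp). Ncr1, Klrb1c, Klra7, Fcgr3 and Klrk1 were not detected. Klra4 was called higher in the sub-polysomal pool (0.71, limma adjusted p = 0.0443), but not with crossed dye swaps (0.0935) or without both extracts (0.105). The summed log2 level of the NK list was 9.89 to 10.18 in WT and 9.92 to 10.60 in Lck-/-. Of 12 macrophage and dendritic cell markers 6 were detected in each genotype: Csf1r, Cd68, Cd74, H2-Ab1, Ctss and Cst3. Lyz2, Cd14, Adgre1, Itgax, Flt3 and H2-Aa were not. The summed level of this list was 12.74 to 12.93 in WT and 12.57 to 12.80 in Lck-/-. In this list H2-Ab1 fell by 0.98 (SE 0.16, limma adjusted p = 0.00270) and Cd68 by 0.77 (SE 0.13, adjusted p = 0.00366) in mean level. Ctss was called higher in the sub-polysomal pool (0.61, limma adjusted p = 0.0357, 0.0561 with crossed dye swaps and 0.0852 without both extracts). Mast cell and basophil markers, of interest for Il3 and Csf2, gave 0 of 7 detected in WT and 2 of 7 in Lck-/-, Tpsb2 and Kit, at a summed level of 9.81 to 10.58 and 10.25 to 11.43. Kit was called higher in the sub-polysomal pool (0.52, limma adjusted p = 0.0441), but not with crossed dye swaps (0.0715) or without both extracts (0.185). Level tests took genes that passed the filter in either genotype. Kit, not detected in WT, could thus enter through the group where it was higher. The same filter applied to Klra4. Of 3 CD4 cell markers 1 was detected, Cd4, and of 6 B cell markers 1, Cd79b. Lymph node stroma markers gave 0 of 7. The part of these cells in the cytokine levels was not tested.

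The 10 genes did not form a single group over the 8 extracts. Mean levels of Ifng correlated with those of Csf2 at 0.79, of Ccl4 at 0.77 and of Lta at 0.55, and with those of Il2 at -0.16 and Xcl1 at -0.42. Il2 followed Il3 at 0.82 and Xcl1 at 0.75. Among the 9393 genes tested, those most like Ifng over the 8 extracts by Pearson r were Jaml at 0.96, Sco2 at 0.96, Rbm15b at 0.96, Mbd2 at 0.95 and Rrp15 at 0.95. These values describe 8 extracts in 2 genotypes and include the genotype difference.

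Because Ifng and Csf2 rose together and were called under every alternative that tested their mean level, the 250 bases before the start of each gene are shown, from RefSeq on GRCm38.p6. Promoters were matched for 8 of the 10 genes, and motifs were searched on both strands. Capitals mark GGAAA or its reverse complement, the core bound by NFAT, which 55.6% of 27025 such promoters hold. It occurred 1 time for Ifng and 2 times for Csf2.
Ifng, chr10:118440796-118441045, plus strand: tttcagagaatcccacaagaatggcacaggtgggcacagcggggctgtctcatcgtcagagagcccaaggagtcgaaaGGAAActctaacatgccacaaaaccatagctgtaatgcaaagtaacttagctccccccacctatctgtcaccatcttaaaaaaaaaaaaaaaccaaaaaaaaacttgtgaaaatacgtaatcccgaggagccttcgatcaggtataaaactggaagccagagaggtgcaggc
Csf2, chr11:54249900-54250149, minus strand: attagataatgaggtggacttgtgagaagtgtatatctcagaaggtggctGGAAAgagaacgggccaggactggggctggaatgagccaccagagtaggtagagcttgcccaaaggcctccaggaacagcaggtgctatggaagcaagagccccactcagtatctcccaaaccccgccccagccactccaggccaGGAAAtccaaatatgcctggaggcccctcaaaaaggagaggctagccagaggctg

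All 8 matched promoters held GGAAA at least 1 time, with 3 in Tnf and 2 each in Il2, Lta, Csf2 and Ccl3. The AP-1 motif TGANTCA, held by 6.87% of promoters, occurred in none of the 8 windows. A kappaB pattern, GGG and CC with any 5 bases between them, was held by 45.4% and occurred in 4 of them, Il2, Tnf, Lta and Il3, and TATAAA, held by 13.0%, in 4, Ifng, Il2, Tnf and Lta. These are matches of letters in a short window and do not show binding.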

How the data were processed

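Each deposited file gives, per the file headers, the intensity of every spot and its surround as read by the Agilent software (Feature Extraction), a processed intensity, mm9 positions and flags (unit other, yes or no per spot) for spots well above background. The authors' deposited table holds log2 ratios of polysomal to sub-polysomal signal, 8 columns, with limma named in the submitters' processing notes and no method. Aligners do not apply.

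Intensities were corrected with normexp (offset 50), log2 ratios normalised by loess and levels by Aquantile (R 4.3.3, limma 3.58.1, the data.table package 1.17.8). Of 55681 probes, 31381 were named through RefSeq genes of GRCm38.p6, 27235 by accession, 3581 by symbol and 565 by synonym. Dye-swap arrays of an extract were averaged, so n = 4 per genotype. For the ratio test a gene had to be well above background in both channels in each genotype, on 6 or more of its 8 arrays, and for a level test in 1 or both genotypes. limma with empirical Bayes gave p-values, adjusted by Benjamini and Hochberg over all genes tested, and called under 0.05. SE denotes limma's moderated standard error. Neighbouring pairs were compared by exact permutation in SciPy. The code was tested on simulated data with known changes.

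Named genes were the 10, the 5 most like Ifng, and Lck and marker lists as checks. Of each other list, up to 4 genes with the smallest p among those called in a comparison could be named. Genes beyond these are marked as named after their values were seen. The members, lists and tests were chosen with earlier results of these data known. Replicate numbers of the labels did not pair the genotypes. The number of arrays limits the precision.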

Additional observations from a re-analysis of the deposited data

Results flagged for a closer look

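Of 80 groups of 4 extracts (10 genes, 4 measures, 2 genotypes), 6 held an extract whose gap to its nearest neighbour exceeded Dixon's 95% critical share of the group's range, where chance gives about 1 in 20. In 2 of them the gene was Il2 and the measure the ratio: WT replicate 4 at -1.60, with the others from -1.14 to -1.11, and Lck-/- replicate 2 at -0.94, with the others from -0.50 to -0.47. The mean level of Il2 in WT replicate 3 was 11.08, with the others from 9.94 to 10.01. The polysomal level of Csf2 in WT replicate 3 was 7.75, with the others from 7.22 to 7.28. The polysomal level of Ccl4 in WT replicate 1 was 13.49, with the others from 14.28 to 14.35. The mean level of Ccl5 in WT replicate 4 was 10.61, with the others from 11.43 to 11.56. As labelled, WT replicates 1 and 2 are averages over unlike arrays, so the flags in WT depend on the pairing. With crossed dye swaps these extracts became -2.33 and 0.10 for the ratio of Il2 and 7.07 and 7.46 for polysomal Csf2. They became 14.3 and 13.5 for polysomal Ccl4 and 11.68 and 11.29 for the mean level of Ccl5. The ratio of Il3 differed between genotypes by 0.56 in a test of the difference itself. The limma adjusted p was 0.0291, but 0.752 with crossed dye swaps and 0.185 without WT replicates 1 and 2. The difference kept its sign in 21 of 25 alternatives and was called in 7.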

How the results depend on the processing

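The mean-level rises of Ifng and Csf2 were called under every alternative that tested them (24 and 23 settings). The mean-level differences of Ccl4, Lta and Xcl1 kept their sign in all of theirs (24, 24 and 23), and were called in 15, 11 and 14. The number of the 10 genes that were called moved more. Settings with fewer extracts or arrays have fewer samples by construction, and elsewhere the cause was not tested. The count of 1 for the ratio difference became 0 with no filter on dim probes, arrays with polysomal RNA in Cy5 alone, arrays with polysomal RNA in Cy3 alone, slide 2 alone, all 16 arrays with slide and dye as terms, trended and robust variances, the replicate number as a block, crossed dye swaps and WT replicates 1 and 2 left out, 2 with a filter on all 16 arrays, the mean of all probes of a gene, slide 1 alone and the authors' deposited ratios with centred columns, 5 with median centring in place of loess, 6 with no normalization, 8 with the authors' deposited ratios. Leaving out 1 extract gave 0 to 2. The count of 4 for the polysomal level became 0 with arrays with polysomal RNA in Cy5 alone and WT replicates 1 and 2 left out, 1 with arrays with polysomal RNA in Cy3 alone, slide 1 alone and crossed dye swaps, 2 with the scanner's processed signals, no filter on dim probes, a filter on all 16 arrays and slide 2 alone. Leaving out 1 extract gave 2 to 3. The count of 6 for the sub-polysomal level became 0 with arrays with polysomal RNA in Cy3 alone, 1 with arrays with polysomal RNA in Cy5 alone, slide 2 alone and WT replicates 1 and 2 left out, 3 with the scanner's processed signals. Leaving out 1 extract gave 3 to 7. The count of 5 for the mean level became 2 with the scanner's processed signals, no filter on dim probes, arrays with polysomal RNA in Cy5 alone, arrays with polysomal RNA in Cy3 alone and WT replicates 1 and 2 left out, 3 with no normalization, slide 1 alone and slide 2 alone. Leaving out 1 extract gave 3 to 6. The count of 9 for the ratio against 0 in WT became 3 with slide 2 alone, 5 with no normalization, arrays with polysomal RNA in Cy3 alone and crossed dye swaps. Leaving out 1 extract gave 9 each time. The count of 9 for the ratio against 0 in Lck-/- became 3 with no normalization, arrays with polysomal RNA in Cy5 alone and the authors' deposited ratios, 4 with arrays with polysomal RNA in Cy3 alone and crossed dye swaps, 5 with median centring in place of loess and slide 1 alone. Leaving out 1 extract gave 9 each time.

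Signs that turned belonged mostly to differences that were small in the fits given above, or came with a shift of the whole ratio scale. On slide 1 or slide 2 alone, several ratio differences turned to larger values of the other sign. With the scanner's processed signals, the ratio difference became -0.023 for Ccl4 and 0.10 for Xcl1. With median centring in place of loess, the ratio difference became -0.20 for Il2, -0.54 for Tnf, -0.16 for Il3, -0.95 for Ccl3, -1.04 for Ccl4 and -0.62 for Ccl5. There, the polysomal difference became -0.18 for Il3. There, the sub-polysomal difference became 0.38 for Ccl3. There, the WT ratio became 0.61 for Ifng, 0.41 for Lta, 0.075 for Il3 and 0.75 for Ccl3. With no normalization, the ratio difference became -0.21 for Il2, -0.54 for Tnf, -0.17 for Il3, -0.96 for Ccl3, -1.04 for Ccl4 and -0.62 for Ccl5. There, the polysomal difference became -0.26 for Il3. There, the sub-polysomal difference became 0.32 for Ccl3. There, the WT ratio became 0.89 for Ifng, 0.11 for Il2, 0.24 for Tnf, 0.69 for Lta, 0.36 for Il3 and 1.04 for Ccl3. There, the Lck-/- ratio became 0.19 for Il3 and 0.082 for Ccl3. With arrays with polysomal RNA in Cy3 alone, the ratio difference became -0.041 for Ccl3. With slide 1 alone, the ratio difference became 0.67 for Ifng, 0.46 for Lta and 0.43 for Xcl1. There, the polysomal difference became 0.29 for Ccl3. With slide 2 alone, the ratio difference became -0.039 for Tnf, -0.068 for Il3, -0.57 for Ccl3 and -0.54 for Ccl5. There, the polysomal difference became -0.13 for Il3. There, the sub-polysomal difference became 0.10 for Ccl3. There, the WT ratio became 0.14 for Ifng, 0.19 for Ccl3 and -0.0031 for Ccl4. With WT replicates 1 and 2 left out, the ratio difference became 0.11 for Csf2, -0.12 for Ccl3 and -0.044 for Ccl4. There, the polysomal difference became -0.058 for Il3. With the authors' deposited ratios, the ratio difference became -0.55 for Il2, -0.81 for Tnf, -0.59 for Il3, -1.44 for Ccl3, -1.36 for Ccl4 and -0.86 for Ccl5. There, the WT ratio became 1.28 for Ifng, 0.48 for Il2, 0.55 for Tnf, 1.12 for Lta, 0.072 for Csf2, 0.78 for Il3 and 1.50 for Ccl3. There, the Lck-/- ratio became 0.18 for Il3 and 0.067 for Ccl3. With the authors' deposited ratios with centred columns, the ratio difference became 0.53 for Csf2, -0.26 for Ccl3 and -0.18 for Ccl4. There, the Lck-/- ratio became -0.15 for Ccl4. With arrays with polysomal RNA in Cy5 alone, the polysomal difference became 0.018 for Ccl3. There, the mean-level difference became 0.030 for Il3. There, the WT ratio became -0.10 for Ccl4. Over the fits without 1 extract, the ratio difference ran from -0.038 to 0.079 for Ccl3, from -0.26 to 0.078 for Xcl1, from -0.13 to 0.027 for Ifng and from -0.28 to 0.088 for Lta. Over the fits without 1 extract, the polysomal difference ran from -0.36 to 0.21 for Ccl3 and from -0.13 to 0.55 for Il3. Over the fits without 1 extract, the sub-polysomal difference ran from -0.66 to 0.038 for Il3 and from -0.37 to 0.17 for Ccl3. Over the fits without 1 extract, the mean-level difference ran from -0.40 to 0.30 for Il3 and from -0.37 to 0.19 for Ccl3. Over the fits without 1 extract, the WT ratio ran from -0.091 to 0.14 for Ccl4.

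Over all genes tested, the number called ran from 3 (polysomal RNA in Cy3 alone) to 7559 (the authors' deposited ratios) for the ratio difference, against 310. It ran from 159 to 2454 for the polysomal level against 1540, from 267 to 3878 for the sub-polysomal level against 1873, and from 811 to 2330 for the mean level against 1875. Against 0 it was 3025 to 8133 in WT against 5223, and 2271 to 5102 in Lck-/- against 4684. Median centring called 3548 of 3878 genes higher in the sub-polysomal pool, against 829 of 1873 with loess. The shares of all genes called for the ratio difference were 55.8% with median centring, 71.1% with no normalization and 89.2% with the authors' deposited ratios, so the higher counts of the 10 there lie near or below the background. The replicate numbers did not pair the samples: same-numbered extracts correlated from -0.24 to 0.26 in ratio, and 1 of the 4 numbers, replicate 3, gave the best match to itself. With the replicate block limma called 0 of the 10 genes in ratio, and 177 of all genes, and in the polysomal, sub-polysomal and mean level it called 4, 5 and 6. Where limma called 0 ratios of the 10, an unadjusted p under 0.05 was reached by 0 genes with crossed dye swaps or on either dye alone, and by 1 to 3 in the other settings. For the pool levels with a count of 0 it was 4 or 5. The filter on all 16 arrays left out Csf2 and Xcl1. Csf2 in WT was not well above background on every array, and fits on 1 dye orientation or 1 slide rest on 1 array per extract.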
